A study of Rattus norvegicus with 35 samples.

Results

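The luminal epithelial genes described here are Krt8, Krt18, Krt19, Krt7, Cdh1, Epcam, Cldn3, Cldn4, Elf5 and Gata3, measured in the rat mammary gland. All array probes named for one of these 10 genes were taken, with older symbols such as Krt2-8 for Krt8 accepted. This gave 12 of the 41012 probes on the array, and Krt18 and Cldn4 had 2 probes each. The 35 arrays each held RNA of 1 animal, a female Sprague-Dawley rat sampled 21 days after birth at its left abdominal mammary gland, and the females came from different litters. There were 7 groups of 5 animals, defined by what their dams received from gestational day 10 to gestational day 21. The BPA25 and BPA250 dams were gavaged with bisphenol A at 25 or 250 µg per kg body weight per day. The BPA25+genistein and BPA250+genistein dams received the same doses and chow with 250 mg genistein per kg. The BPA25+I3C and BPA250+I3C dams received the same doses and chow with 2000 mg indole-3-carbinol (I3C) per kg. The Control dams are labelled as negative controls. None of these groups received genistein or I3C without bisphenol A, so each diet can be compared only at a fixed dose of bisphenol A. Bisphenol A is a plastics monomer with oestrogenic activity, genistein is a soy isoflavone, and I3C is a compound released from cruciferous vegetables. The comparisons ask whether exposure before birth left a difference in the gland at weaning.

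The mammary gland at weaning is a branching epithelial tree inside a fat pad. The ducts have an inner luminal layer and an outer basal layer of myoepithelial cells, and the luminal layer contains both hormone-sensing cells and the progenitors of milk-secreting cells. Luminal cells are recognised by the simple-epithelium keratins Krt8, Krt18, Krt19 and Krt7, which pair as intermediate filaments, by the adhesion molecules Cdh1 (E-cadherin) and Epcam, and by the tight-junction claudins Cldn3 and Cldn4. Gata3 and Elf5 are transcription factors, Gata3 being required for luminal identity and Elf5 for the alveolar, milk-secreting lineage in the mouse. RNA was taken from the whole gland, so fewer luminal cells and less RNA per luminal cell cannot be told apart in any of the values below.

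The probes that decide what was measured are printed here in lower case, 5′ to 3′, as the array files give them. The Krt18 pair is shown because the array files place both probes, in the rn3 build, away from the chromosome that carries the gene in RefSeq. The Krt8 probe is set beside the probe of RGD1561232, a predicted gene that the array describes as similar to keratin 8. The Cldn3 and Elf5 probes are shown because Cldn3 varied unlike the other members and Elf5 was mostly undetected.
Krt18 probe A_44_P400494: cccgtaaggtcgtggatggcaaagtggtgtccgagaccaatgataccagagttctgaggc
Krt18 probe A_44_P1025476: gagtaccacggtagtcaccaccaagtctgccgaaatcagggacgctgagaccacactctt
Krt8 probe A_42_P784063: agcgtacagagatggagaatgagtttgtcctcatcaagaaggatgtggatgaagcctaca
RGD1561232 probe A_44_P138355: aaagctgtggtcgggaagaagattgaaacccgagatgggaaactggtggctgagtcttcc
Cldn3 probe A_44_P376862: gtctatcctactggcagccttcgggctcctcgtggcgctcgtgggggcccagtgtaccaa
Elf5 probe A_44_P299928: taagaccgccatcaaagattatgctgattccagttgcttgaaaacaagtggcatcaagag

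Each probe is 60 bases long. In the rn3 coordinates of the array files the Krt8 probe covers 983 bases (chr7:140793404-140794386), the Epcam probe 784 bases and the Elf5 probe 7075 bases, so these 3 probes cross an intron. The other 9 probes cover 60 bases without a gap. The Krt18 probe A_44_P400494 lies at chr2:79989405-79989464 and A_44_P1025476 at chr10:66120715-66120774 of rn3. RefSeq places Krt18 at chr7:135036168-135039844 of the GRCr8 assembly, 25828 bases from Krt8 at chr7:135002886-135010339. The Krt18 values may therefore include copies of the gene elsewhere, and whether they do was not tested.

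RefSeq promoter sequences in GRCr8 were found for 5 of the 10 genes: Krt8, Krt18, Epcam, Cldn3 and Gata3. The 250 bases before the start are printed for Krt18 and Epcam, which varied together over the arrays, and for Cldn3, which did not vary with them. Capitals mark matches, on either strand, to 5 short motifs. These are the TATA box (TATAAA), the GC box bound by Sp1-like factors (GGGCGG), the motif of AP-2 factors (GCCNNNGGC), the motif of GATA factors (AGATAA) and the motif of grainyhead-like factors (AACNGGTT).
Krt18, chr7:135035918-135036167, plus strand: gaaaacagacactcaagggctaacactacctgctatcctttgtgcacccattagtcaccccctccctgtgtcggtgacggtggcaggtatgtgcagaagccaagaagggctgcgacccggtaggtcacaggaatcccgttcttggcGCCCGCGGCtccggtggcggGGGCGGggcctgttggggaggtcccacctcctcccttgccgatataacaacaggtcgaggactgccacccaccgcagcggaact
Epcam, chr6:12649679-12649928, minus strand: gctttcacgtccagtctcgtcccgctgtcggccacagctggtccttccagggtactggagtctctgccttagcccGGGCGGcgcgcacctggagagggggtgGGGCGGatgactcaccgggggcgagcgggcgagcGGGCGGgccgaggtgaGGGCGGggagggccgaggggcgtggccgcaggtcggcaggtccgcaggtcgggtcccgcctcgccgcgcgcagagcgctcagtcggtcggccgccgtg
Cldn3, chr12:27346548-27346797, minus strand: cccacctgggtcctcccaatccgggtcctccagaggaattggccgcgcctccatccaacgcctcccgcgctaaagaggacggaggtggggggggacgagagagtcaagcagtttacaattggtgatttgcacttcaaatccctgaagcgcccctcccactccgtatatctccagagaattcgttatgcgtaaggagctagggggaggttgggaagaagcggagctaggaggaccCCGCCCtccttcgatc

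The GC box occurred in 4 of the 5 member promoters (Krt18, Epcam, Cldn3 and Gata3), against 32.4% of 27457 RefSeq promoters of the same length. Epcam held 4 copies of it, and the window was 75.6% G or C, against a median of 52.0% over all promoters. The AP-2 motif occurred in Krt18 and Gata3, against 13.0% of all promoters. The TATA box occurred only in Krt8 among the 5 (13.1% of all), where the match to the forward strand overlaps a match to the reverse strand. The GATA motif (10.0% of all) and the grainyhead-like motif (1.65% of all) were in none of these 5 windows.

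Levels are log2 of the processed probe intensity relative to the 75th percentile of the same array, so 0 is that percentile, and a level is comparable between arrays for 1 probe but not between probes. The arrays were unequal. On slide 3, which carried replicate 2 of Control, BPA25, BPA250 and BPA25+genistein, the share of probes called well above background was 93.4% to 96.4%. On slides 4 and 5 it was 65.2% to 72.2%, and on the 25 arrays of the other slides it was 31.9% to 49.8%. Slide accounted for 69.3% of the variance of Krt8, 53.1% of Cldn3 and 46.4% of Gata3, and for 15.3% to 29.1% of the other 6 measured members. With 10 slides for 35 arrays such a share is well above 0 by construction. The shares of those 6 members therefore do not by themselves show a slide effect.

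A gene was tested when a probe of it had the well-above-background flag on 4 or more of the 5 arrays in some group, and 9 of the 10 members met this. Cldn3 was above background on all 35 arrays, Krt18 and Krt19 on 34, Cdh1, Epcam and Cldn4 on 30, Krt8 and Krt7 on 24 and Gata3 on 20. Elf5 was above background on 9 arrays, all of them on slides 3, 4 and 5, and was not tested. The brighter Krt18 probe (A_44_P400494) and the only Cldn4 probe that met this rule (A_44_P975437) stand for their genes below.

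**Figure D1:**
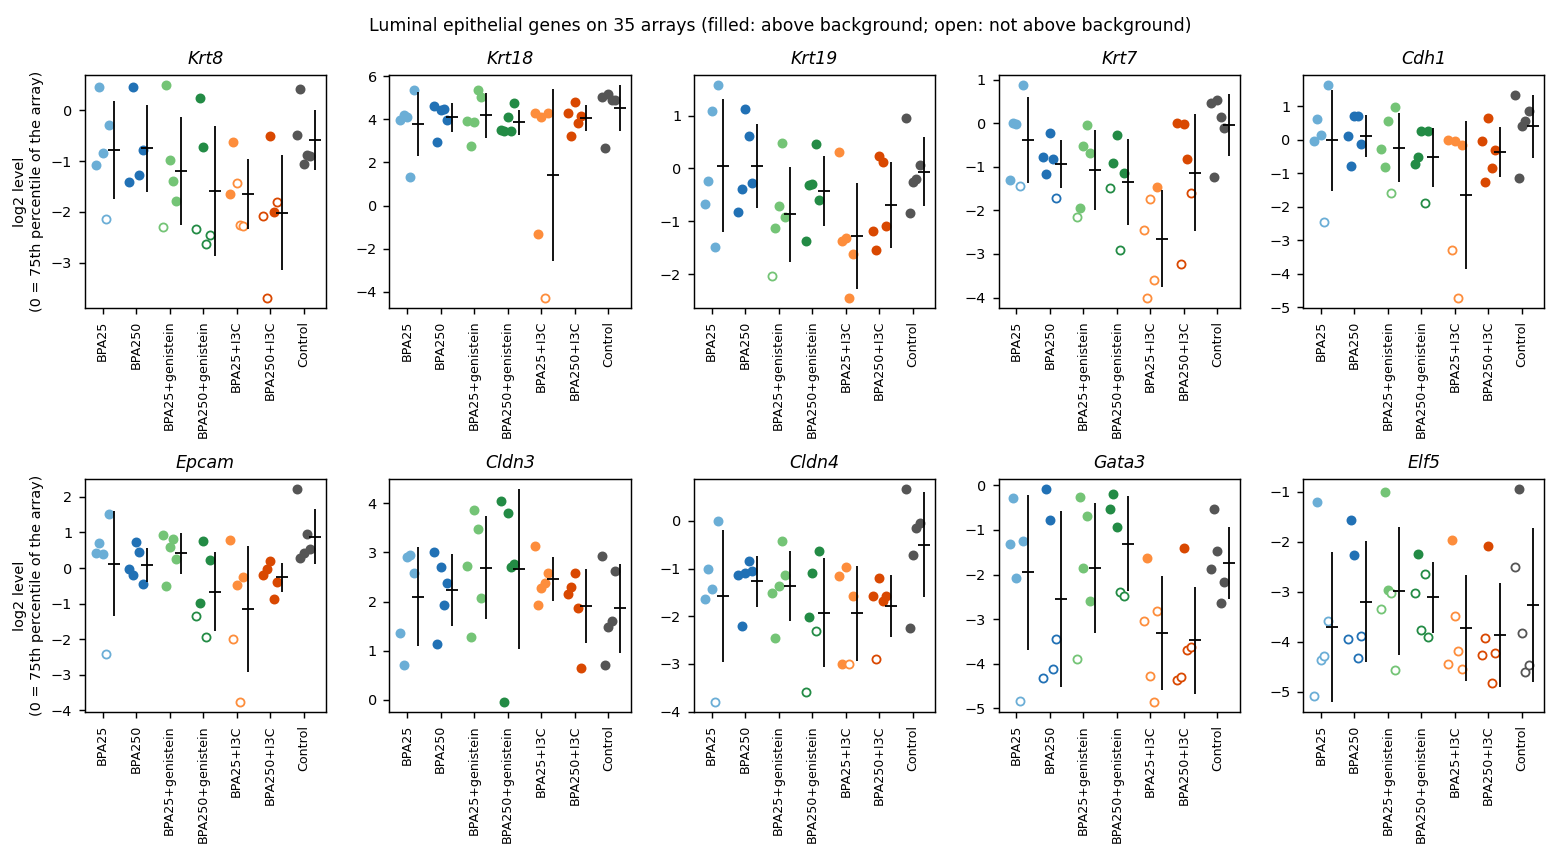
Level of each luminal gene on each of the 35 arrays, by group (vertical axis: log2 level, with 0 at the 75th percentile of the array), with Control at the right; filled points were above background, open points were not, and the black bar gives the group mean with 1 SD (n = 5, and 4 for Krt8 in BPA250). Krt18, Cdh1 and Epcam have their 3 lowest values on the same arrays, BPA25+I3C 2 and 4 and BPA25 4, Krt7 in BPA25+I3C lies below every Control array, and Elf5 is mostly open.

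The main result is a difference in mean without a call: 8 of the 9 measured members had a lower mean in BPA25+I3C than in Control glands, where 29.4% of all genes did, but no member passed the test in any of the 11 comparisons of groups. For Krt18, Cdh1 and Epcam much of that difference lay on 2 of the 5 BPA25+I3C arrays. Several members varied together across arrays, and the members and the marker lists used below were chosen with earlier results of these data known. Shares of members set beside shares of all genes are therefore descriptive. The members are described first by role, then by comparison, and last by how they varied together.

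Krt18, the type I keratin that pairs with Krt8, had levels of 4.27, -1.30, 4.08, -4.26 and 4.28 in BPA25+I3C glands, against 5.02, 2.65, 5.16, 4.90 and 4.89 in Control glands. Arrays 2 and 4 of BPA25+I3C stood far below the other 3, and on array 4 the probe was not above background. Levels in BPA25 glands were 3.96, 4.19, 4.12, 1.31 and 5.36, and array 4 of that group was also low. In BPA250+I3C glands they were 4.30, 3.22, 4.81, 3.80 and 4.13. The other 3 groups (BPA250 and both genistein groups) spanned 2.77 to 5.37 and overlapped Control. The second Krt18 probe was lowest on the same 3 arrays, in another order, with levels of -4.91 and -1.41 on BPA25+I3C arrays 4 and 2 and of -1.57 on BPA25 array 4. Across the 35 arrays the 2 probes correlated at r = 0.956 (Spearman rho = 0.930).

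Krt7, a type II keratin of simple ductal epithelium, had levels of -2.46, -4.00, -1.75, -3.60 and -1.47 in BPA25+I3C glands, against 0.47, -1.24, 0.53, 0.15 and -0.12 in Control glands. Every BPA25+I3C array lay below every Control array, although only 1 of the 5 BPA25+I3C arrays was above background, so the size of the difference is poorly measured. In BPA25 glands the levels were -1.31, -0.00, -0.02, -1.45 and 0.87, which also lay above all 5 BPA25+I3C values. In BPA250+I3C glands they were 0.00, -3.23, -0.01, -0.82 and -1.61 and overlapped Control. Krt7 had the smallest p of the members in the test for any difference among the 7 groups (unadjusted p = 0.00379, limma F test; adjusted p = 0.501, rank 122 of 16156 genes).

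Krt8, the type II partner of Krt18, had levels of -1.64, -0.62, -1.44, -2.26 and -2.28 in BPA25+I3C glands and of -2.08, -3.69, -0.51, -2.00 and -1.80 in BPA250+I3C glands, against -0.48, 0.41, -1.06, -0.89 and -0.90 in Control glands. The groups overlapped. The highest Krt8 values of BPA25, BPA250, BPA25+genistein and Control (0.45, 0.46, 0.49 and 0.41) all came from slide 3, and 11 of the 35 arrays gave no Krt8 value above background. Krt19, a type I keratin without a fixed partner, had levels of 0.32, -1.37, -1.31, -2.44 and -1.61 in BPA25+I3C glands, against 0.96, -0.84, -0.26, -0.20 and 0.06 in Control glands. Here 4 of the 5 BPA25+I3C arrays lay below every Control array.

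Cdh1, which joins epithelial cells at adherens junctions, had levels of -0.00, -3.30, -0.03, -4.71 and -0.17 in BPA25+I3C glands, against 1.33, -1.15, 0.40, 0.57 and 0.87 in Control glands. The probe was not above background on BPA25+I3C arrays 2 and 4 and on BPA25 array 4 (-2.45). Epcam, an epithelial surface adhesion glycoprotein, had levels of 0.79, -2.00, -0.48, -3.76 and -0.26 in BPA25+I3C glands, against 2.21, 0.29, 0.43, 0.95 and 0.53 in Control glands. In BPA250+I3C glands Epcam had -0.19, -0.04, 0.20, -0.88 and -0.39, so that every array of that group lay below every Control array. Neither gene separated the other groups from Control.

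The claudins differed from each other. Cldn4 had levels of -1.15, -3.00, -0.97, -3.01 and -1.58 in BPA25+I3C glands and of -1.57, -2.91, -1.20, -1.68 and -1.58 in BPA250+I3C glands, against 0.66, -2.25, -0.72, -0.15 and -0.04 in Control glands. In 4 of the 5 Control glands Cldn4 was above all 10 I3C glands, and Control array 2, on slide 3, was the exception. Cldn3 had levels of 3.13, 1.93, 2.27, 2.38 and 2.58 in BPA25+I3C glands, against 2.93, 0.71, 1.48, 1.60 and 2.62 in Control glands. BPA25+I3C arrays 2 and 4, which were among the 3 lowest for Krt18, Cdh1 and Epcam, lay within the range of the Control arrays for Cldn3. The other Cldn4 probe (A_44_P299550) did not pass the filter, was above background on 17 arrays and had r = 0.0103 with A_44_P975437. By that other probe Control ranked 5 of 7 in group mean, at -1.52 ± 1.00 (SD, n = 5), and both I3C groups were lowest. The Cldn4 values therefore rest on A_44_P975437 alone.

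Gata3 had levels of -3.03, -1.62, -4.28, -4.85 and -2.81 in BPA25+I3C glands and of -4.36, -4.29, -1.42, -3.69 and -3.61 in BPA250+I3C glands, against -1.87, -0.53, -1.47, -2.65 and -2.18 in Control glands. It was above background on 1 of 5 arrays in each I3C group, on slide 4 in both, against all 5 Control arrays. Gata3 values of 3 of 5 BPA250 arrays were also below background. Elf5 ranged from -5.09 to -0.96 over the 35 arrays, with group means between -3.87 and -2.98, and 26 of those values were not above background.

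In the order of group means, BPA25+I3C was lowest for Krt18, Krt19, Krt7, Cdh1, Epcam and Cldn4, and Control was highest for Krt8, Krt18, Krt7, Cdh1, Epcam and Cldn4. For Krt8 and Gata3 the lowest group was BPA250+I3C. Cldn3 ran the other way, with BPA25+genistein highest at 2.68 ± 1.05 and Control lowest at 1.87 ± 0.90 (SD, n = 5 each). Between neighbours in these orders the gap exceeded the pooled SD of the 2 groups in 1 case, Krt7 in BPA25+I3C (-2.66 ± 1.11) against BPA250+genistein (-1.35 ± 0.98), where it was 1.25 SD. All other neighbouring groups differed by less than 1 pooled SD.

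**Figure D2:**
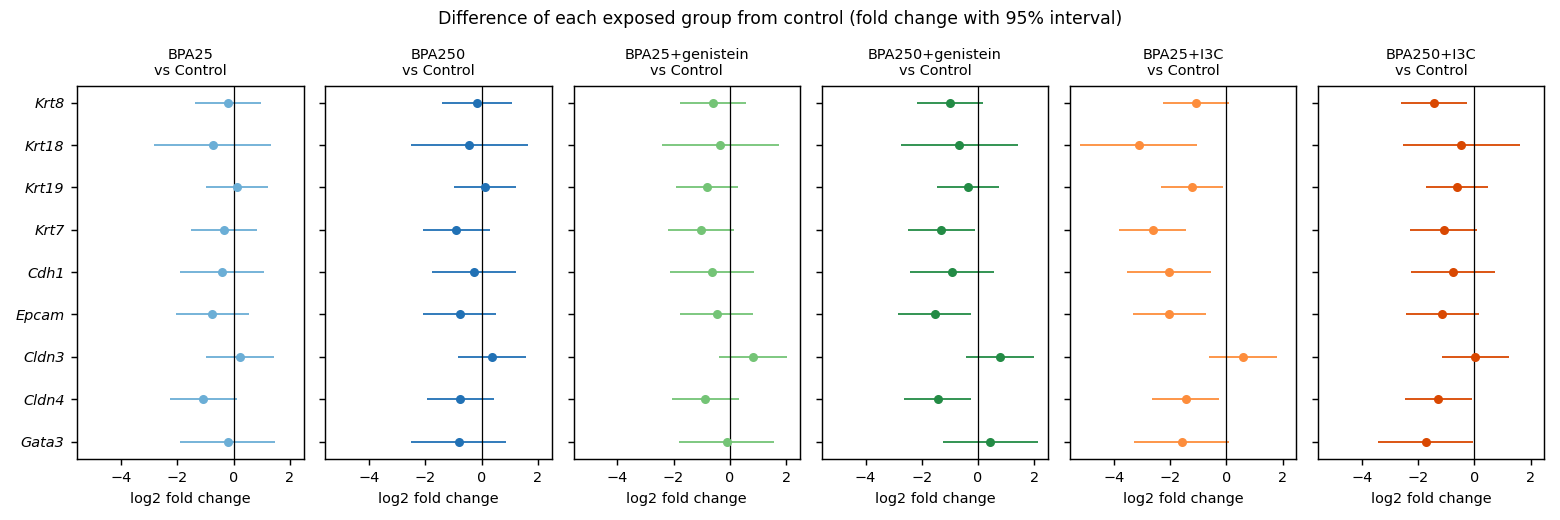
Log2 fold change of the 9 measured luminal genes in each exposed group against Control, with its 95% interval from the limma fit (horizontal axis), 1 panel per group. The BPA25+I3C panel holds the lowest values, Krt18 at -3.11 and Krt7 at -2.61, and Cldn3 lies at or above 0 in all 6 panels.

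Groups were compared with limma over 16156 genes, with Benjamini-Hochberg adjustment within each comparison and a call at an adjusted p under 0.05. The 6 comparisons with Control share the same 5 Control arrays, so they are not independent of each other. In BPA25+I3C against Control 0 of 9 members were called and 0% of all genes were. The median log2 fold change was -1.58 over the members and 0.14 over all genes. At an unadjusted p under 0.05, 6 members were lower (Krt18, Krt19, Krt7, Cdh1, Epcam and Cldn4), where 1.21% of all genes were lower at that level. These 6 varied together across arrays (pairwise r from 0.554 to 0.877), so they are not 6 separate results. The lowest fold change was that of Krt18, -3.11 ± 1.02 (SE; 8.62-fold lower; limma adjusted p = 1.00). Krt7 differed by -2.61 ± 0.58 (6.12-fold lower; limma adjusted p = 0.345), and it was the 1 member whose groups did not overlap, where 0.173% of all genes were lower without overlap. Cdh1 differed by -2.05 ± 0.74, Epcam by -2.02 ± 0.63 and Gata3 by -1.58 ± 0.83. The highest was Cldn3, 0.59 ± 0.59.

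Much of the difference in Krt18, Cdh1 and Epcam lay on the 2 low BPA25+I3C arrays. Without BPA25+I3C arrays 2 and 4 and BPA25 array 4, an alternative chosen after the values were seen, the median of the members in BPA25+I3C against Control was -0.81. Krt18 then differed by -0.31 instead of -3.11, Cdh1 by -0.47 and Epcam by -0.86. Krt7 still differed by -1.85 (limma unadjusted p = 0.0063, adjusted p = 0.795) and Gata3 by -1.64. Krt8 differed by -1.20, against -1.07 with all arrays. With normexp background correction the median was -0.57, Krt7 differed by -0.81 and Gata3 by -0.40. This correction was run with an offset of 50 added to each signal, which by construction shrinks log2 differences of dim probes. In the authors' own normalised table the median was -0.78, Krt7 differed by -1.34 and Gata3 by -0.75. Slides 8 and 9 each carried both groups, and 8 of the 9 members were lower in BPA25+I3C on both, where 23.5% of all genes were. The BPA25+I3C array on slide 9 was array 4, the lowest of the 35. Krt7 differed by -1.90 on slide 8 and by -3.48 on slide 9, while Cldn3 was higher on slide 8 and lower on slide 9.

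In BPA25+I3C against BPA25, which asks what I3C added at the lower dose, 0 members were called, against 0.0124% of all genes (2 genes). The members' median was -1.34 and that of all genes was 0.13. Krt18, Krt19, Krt7 and Cdh1 were lower at an unadjusted p under 0.05 (1.72% of all genes). Krt18 had the lowest fold change, -2.37 ± 1.02 (limma adjusted p = 0.999). Krt7 differed by -2.27 ± 0.58 (limma adjusted p = 0.473), and its groups did not overlap (0.229% of all genes). Cldn3 had the highest fold change, 0.36 ± 0.59. Without the 3 low arrays the members' median was -0.74. Krt18 then differed by -0.19, Cdh1 by -0.66, Krt19 by -1.31, Krt7 by -1.78 and Gata3 by -2.14. With normexp background correction Krt7 differed by -0.98.

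In BPA250+I3C against BPA250, the same question at the higher dose, all 9 members had a lower mean, where 30.2% of all genes did, and 0 were called (0% of all genes). The median was -0.49 against 0.24 for all genes. Krt8 had the lowest value, -1.26 ± 0.61 (limma unadjusted p = 0.0478; adjusted p = 0.766; 1.34% of all genes were lower at that level), and Krt18 the highest, -0.03 ± 1.02. The 2 effects of I3C were also compared directly. For Krt18 the effect at BPA250 exceeded that at BPA25 by 2.34 ± 1.45, and for Krt7 by 2.08 ± 0.83 (limma unadjusted p = 0.0168; adjusted p = 1.00; 3.16% of all genes passed the unadjusted level). The lowest difference was that of Cldn3, -0.69 ± 0.84. None of the 9 differences was called (0% of all genes), so the I3C effect was not shown to depend on the dose.

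In BPA250+I3C against Control 0 members were called (0% of all genes), and the median was -1.09 against 0.20 for all genes. Krt8, Cldn4 and Gata3 were lower at an unadjusted p under 0.05 (1.77% of all genes). Gata3 had the lowest fold change, -1.73 ± 0.83, Krt8 differed by -1.43 ± 0.58, and Cldn3 had the highest, 0.04 ± 0.59 (limma adjusted p between 0.917 and 0.989 for all 9). Epcam differed by -1.14 ± 0.63, and its groups did not overlap (0.724% of all genes were lower without overlap). On the 3 slides that held both groups, Krt8, Krt18, Krt7, Cdh1, Epcam, Cldn4 and Gata3 were lower on all 3, where 15.6% of all genes were. With slide as a random block Krt8 had the smallest limma adjusted p found for it in this comparison, 0.0688. With normexp background correction the median was -0.44, Gata3 differed by -0.46 and Krt8 by -0.53.

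Bisphenol A without a diet gave smaller differences. In BPA25 against Control 7 of 9 members had a lower mean, where 48% of all genes did, and 0 were called (0% of all genes). The median was -0.34, the lowest value was that of Cldn4 (-1.08 ± 0.59) and the highest that of Cldn3 (0.23 ± 0.59). In BPA250 against Control 7 of 9 had a lower mean, where 58.3% of all genes did, and 0 were called (0% of all genes). Its median was -0.44, the lowest value that of Krt7 (-0.90 ± 0.58) and the highest that of Cldn3 (0.37 ± 0.59). At an unadjusted p under 0.05 neither comparison held a member, against 2.01% of all genes for BPA25 and 0.99% for BPA250. The 95% intervals were wide: for Krt18 they ran from -2.82 to 1.34 in BPA25 and from -2.52 to 1.64 in BPA250, and differences within those limits are not excluded by 5 arrays a group.

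Between the doses, BPA250 against BPA25 gave a median of 0.03 with 3 of 9 members lower, where 55.9% of all genes were lower, and 0 called (0% of all genes). Values ran from -0.60 ± 0.83 for Gata3 to 0.31 ± 0.59 for Cldn4.

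Genistein was compared at each dose. In BPA25+genistein against BPA25 the median was 0.10, from -0.92 ± 0.54 for Krt19 to 0.58 ± 0.59 for Cldn3, and 0 members were called against 0.00619% of all genes (1 gene). In BPA250+genistein against BPA250 it was -0.48, from -0.83 ± 0.61 for Krt8 to 1.24 ± 0.83 for Gata3, and 0 were called (0% of all genes). The difference of both genistein effects had a median of -0.42, from -1.05 ± 0.90 for Epcam to 1.15 ± 1.17 for Gata3, and 0 were called (0% of all genes).

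Against Control, the genistein groups had medians of -0.61 (BPA25+genistein) and -0.92 (BPA250+genistein), and 0 members were called in either (0% of all genes in both). In BPA25+genistein values ran from -1.03 ± 0.58 for Krt7 to 0.82 ± 0.59 for Cldn3. In BPA250+genistein Krt7, Epcam and Cldn4 were lower at an unadjusted p under 0.05, where 2.23% of all genes were. Epcam had the lowest fold change, -1.54 ± 0.63 (limma adjusted p = 0.999), with levels of -1.34, -0.98, 0.75, -1.95 and 0.21 in BPA250+genistein glands, against 2.21, 0.29, 0.43, 0.95 and 0.53 in Control glands. The highest was Cldn3, 0.79 ± 0.59. The test for any difference among the 7 groups called 0 members, against 0.00619% of all genes, and 1 member, Krt7, had an unadjusted p under 0.05 (4.04% of all genes).

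To follow the members together, the luminal level of an array was taken as the mean over the 9 measured genes of their level minus its mean over all arrays. It was -2.84 on BPA25+I3C array 4, -1.59 on BPA25+I3C array 2, -1.48 on BPA25 array 4 and -1.16 on BPA250+I3C array 2. The next lowest array, BPA250+genistein 4, was at -0.72, and the highest were BPA25 array 5 at 1.44 and Control array 1 at 1.36. The lowest and the highest arrays thus included 2 arrays of the same group, BPA25. The group values were -0.97 ± 1.23 in BPA25+I3C, -0.31 ± 0.67 in BPA250+I3C and 0.26 ± 1.09 in BPA25, against 0.64 ± 0.52 in Control (SD, n = 5 each).

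**Figure D3:**
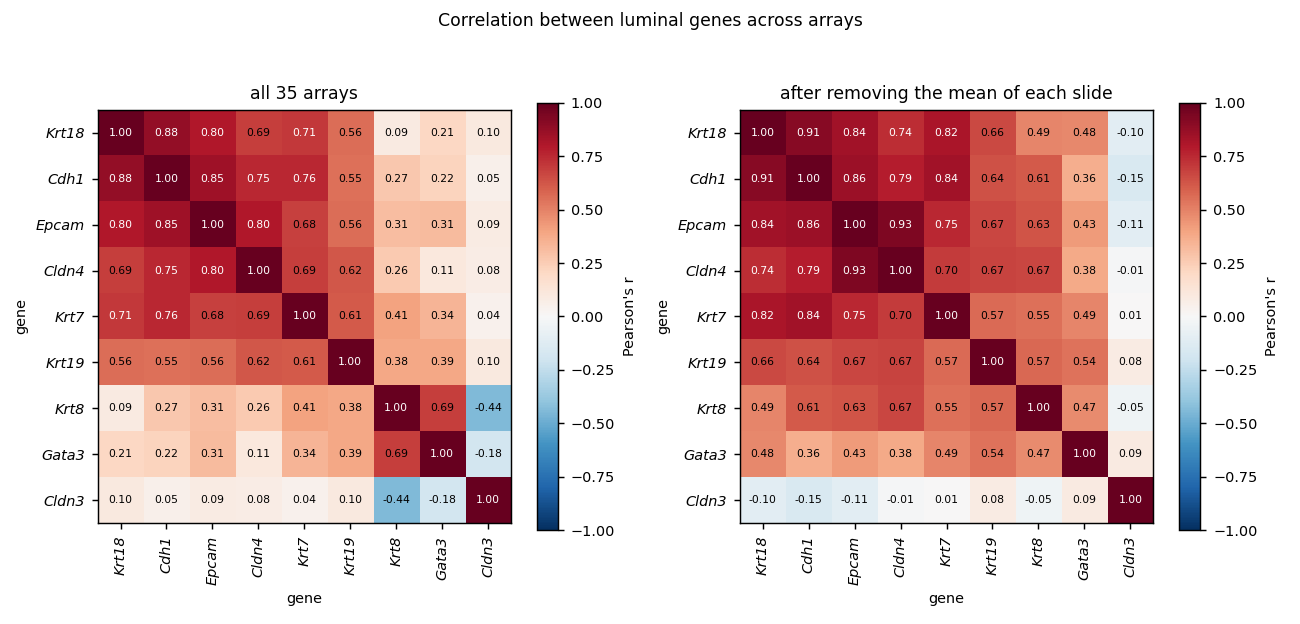
Pearson correlation between the levels of each pair of luminal genes over the 35 arrays (left) and after the mean of each slide was removed (right), from blue (-1) to red (1). Krt18, Cdh1, Epcam, Cldn4, Krt7 and Krt19 form a red block in both panels, Cldn3 is near 0 with nearly all genes after slide means are removed, and Krt8 joins the block more closely in the right panel.

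The members fell into unequal patterns across arrays. The correlations given here describe 35 arrays that share slides and detection limits. Krt18 and Cdh1 had r = 0.877 (rho = 0.764), Cdh1 and Epcam 0.850 (0.695), and Epcam and Cldn4 0.797 (0.748). Among the 15 pairs of Krt18, Krt19, Krt7, Cdh1, Epcam and Cldn4, a subset picked for this description after the values were seen, r ranged from 0.554 to 0.877 with a median of 0.691. The median was 0.755 after slide means were removed, 0.649 without the 3 low arrays, 0.587 with normexp correction and 0.644 in the authors' table. The other 21 pairs of members ranged from -0.442 to 0.694 with a median of 0.209, which was 0.427, 0.140, 0.121 and 0.218 under the same 4 settings in the same order.

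Krt8 and its filament partner Krt18 had r = 0.0861 over the 35 arrays. After slide means were removed it was 0.486, and in the authors' table it was 0.428. Krt8 and Gata3, which had the largest shares of variance between scan days (51.1% and 43.5%), had r = 0.694. Cldn3 had r from -0.442 (with Krt8) to 0.101 (with Krt18), and from -0.155 to 0.0902 after slide means were removed. The RGD1561232 probe, described on the array as keratin 8-like, was above background on all 35 arrays and had r = 0.416 with the Krt8 probe printed beside it above. Its r with the luminal level was 0.899, against 0.473 for the Krt8 probe, which is itself one of the 9 genes in that level. Which of the 2 probes follows Krt8 messenger RNA more closely was not tested.

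**Figure D4:**
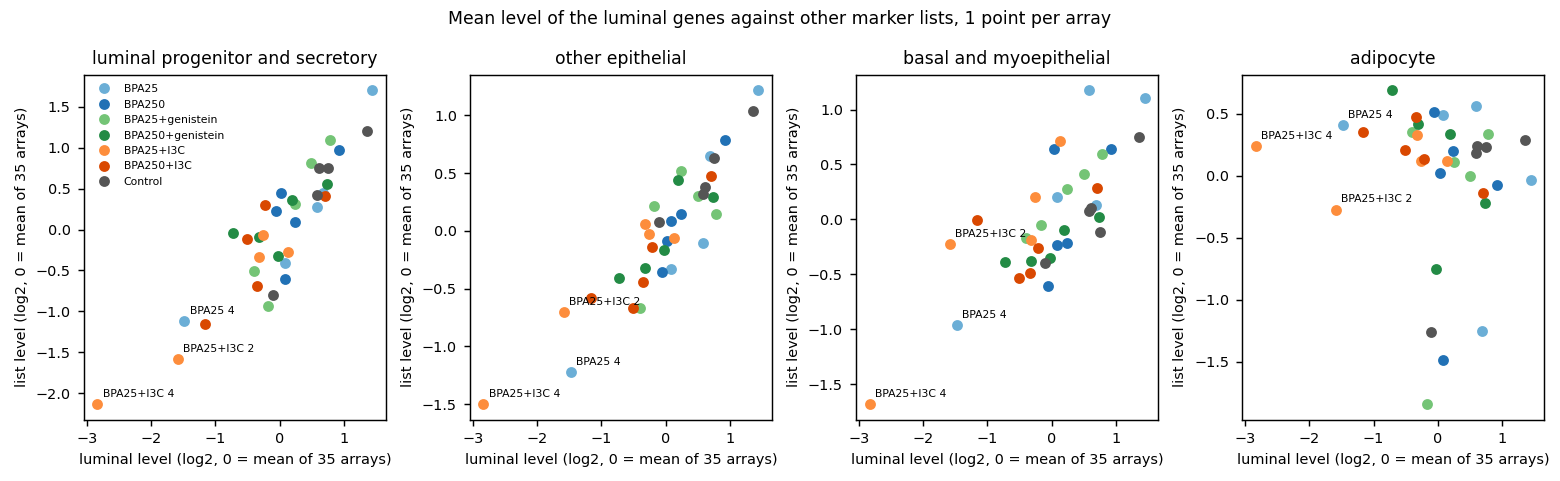
Mean level of the luminal genes (horizontal axis) against the mean level of 4 other marker lists (vertical axis), both log2 relative to the mean of 35 arrays, 1 point per array, coloured by group. The secretory, other epithelial and basal lists run upwards with the luminal level and the 3 lowest arrays are named; the adipocyte list shows no such run.

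Other epithelial genes varied with the luminal members. The mean level of 10 measured genes of an other epithelial list (of 28 listed, among them Cldn7, Cldn8, Ehf and Prss8) had r = 0.908 with the luminal level. For luminal progenitor and secretory genes (7 of 12 measured) r was 0.901, for hormone-sensing luminal genes (4 of 10) 0.860 and for basal and myoepithelial genes (10 of 13) 0.776. After slide means were removed these were 0.927, 0.944, 0.892 and 0.809, and without the 2 arrays farthest from the median of the luminal level they were 0.894, 0.855, 0.802 and 0.710. The adipocyte list (9 of 10) had r = -0.102, fibroblast -0.0957, endothelial 0.173, macrophage -0.0466, skeletal muscle 0.0830, T cell 0.447 and B cell, with 1 measured gene of 6, 0.276.

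On the 3 low arrays the secretory and other epithelial lists were low as well. On BPA25+I3C arrays 4 and 2 and on BPA25 array 4 the secretory list was at -2.13, -1.59 and -1.12, and the other epithelial list at -1.50, -0.70 and -1.22. The basal list was at -1.68, -0.22 and -0.96, and the value on BPA25+I3C array 2 was above those of several other arrays, such as BPA250 array 5 (-0.605). The adipocyte list was at 0.24, -0.27 and 0.41, within its range of -1.84 to 0.69 over all arrays. The T cell list was at -2.61, -0.57 and -1.90 and the 1 measured B cell gene at -2.62, -0.48 and -3.95. The luminal values thus ran low together with secretory and other epithelial values on all 3 arrays. T and B cell values were also low on BPA25+I3C array 4 and BPA25 array 4. Low T cell values occurred without a low luminal level too, as on BPA25 array 1 (T cell -2.70, luminal 0.08). On BPA250 array 4 the T cell list was at -1.96 and the B cell gene at -3.78, with a luminal level of 0.23. The part of these lists in the luminal values was not tested.

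In BPA25+I3C against Control the other lists of the epithelium held 0 calls as well. Of 7 secretory genes 5 had a lower mean (median -1.68), of 10 other epithelial genes 9 (median -1.07), of 4 hormone-sensing genes 3 (median -0.57) and of 10 basal genes 7 (median -0.08). Over all genes 29.4% had a lower mean. At an unadjusted p under 0.05, 4 secretory, 5 other epithelial, 1 hormone-sensing and 1 basal gene were lower, where 1.21% of all genes were. Csn3, a milk casein, differed by -2.62 ± 0.55 (limma adjusted p = 0.345), Lalba, the milk protein alpha-lactalbumin, by -3.17 ± 0.89, and Areg, an epidermal growth factor receptor ligand of hormone-sensing cells, by -2.24 ± 0.56 (adjusted p = 0.804). Ehf, an epithelial transcription factor, differed by -1.83 ± 0.64 and Prss8, a membrane protease, by -1.76 ± 0.59. Tp63, a basal transcription factor, differed by -1.28 ± 0.61 and Krt5, a basal keratin, by -0.38 ± 0.60. The genes with a higher mean (2 secretory, 1 other epithelial, 1 hormone-sensing and 3 basal) are not among those named. Over the arrays of the groups the secretory list spanned -2.13 to -0.06 in BPA25+I3C and -0.80 to 1.21 in Control, the other epithelial list -1.50 to 0.06 and 0.08 to 1.04, and the T cell list -2.61 to 0.50 and -0.84 to 1.36, in that order of groups. Of 9 adipocyte genes 8 had a higher mean, with a median of 0.14, the same as for all genes. Skeletal muscle genes also differed between these groups, with all 8 measured genes lower at an unadjusted p under 0.05 (1.21% of all genes) and a median of -3.64. Against Control, all 8 were also lower at that level in BPA250+I3C and both genistein groups, 5 were in BPA250 and 0 in BPA25. The muscle list spanned -3.44 to 2.78 in BPA25+I3C and 1.28 to 3.84 in Control. Its level had r = 0.0830 with the luminal level across arrays, and its part in the values above was not tested.

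Of 16147 genes outside the set, the most similar to the luminal level was Tfap2b, a transcription factor of the AP-2 family (r = 0.916, rho = 0.875; 0.806 without the 3 low arrays). RGD1310384 had 0.911, Prss8 0.906, the casein Csn1s1 0.903 and RGD1561232 0.899. The other 5 of the first 10 were Fxyd3, an ion transport regulator (0.881), Lalba (0.876), the array transcript XM_227391 (0.875), Spdef, an epithelial ETS transcription factor (0.874), and Mia (0.869). After slide means were removed 8 of these 10 stayed among the first 10, and Rasd2 and Slc44a4 replaced Fxyd3 and Mia. There were 21 genes with r over 0.8, and the median over all genes was -0.0425.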

How the data were processed

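Messenger RNA of 35 mammary glands was measured on 1-colour (Cy3) Agilent rat 4x44K arrays, 5 per group. Per the file headers, Agilent Feature Extraction 9.5.3.1 made the deposited processed signal, an intensity per spot after background subtraction, and the uncorrected mean signal and background, also intensities; deposited 0 or 1 flags (other) mark spots above background, saturated or outlying. The authors also deposited a table on a log2 scale with column medians between 6.55 and 6.58, whose normalisation method is not given in the sources used here.

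The processed signal was taken to log2 (no pseudocount) and centred on each array's 75th percentile. Spots with outlier flags (5185) were set to missing, and repeated spots were averaged. Probes above background on at least 4 of 5 arrays of 1 group, with at most 5 missing values, were kept (18996), and the brightest kept probe stood for each gene (16156 genes). Krt8 misses 1 value, on BPA250 array 3. Of the 41012 probes, 21259 were named through RefSeq (GRCr8) by accession, gene ID or symbol, and the others kept the array's name.

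A linear model with 1 mean per group was fitted over the 35 arrays (limma 3.58.1, R 4.3.3), with moderated variances and Benjamini-Hochberg adjustment over all genes of a comparison, and the fit was tested on simulated data. Signals, not read counts, were measured, so the number of arrays limits the precision. Each gland was on 1 array and the main fit has no term for slide. The p-values therefore measure the spread between arrays, in which glands, slides and scan days are mixed. With slide as a random block the correlation within slides was 0.584. Slide and scan day come from the file headers. Replicate numbers are shared between groups, and often slides too: deviations from the group mean of same-numbered arrays correlated above 0.1 in all 5 pairs only for BPA25 against Control and BPA250+genistein against BPA250. Alternatives changed the background correction, centring, filter, probe choice, block and arrays included. The text names every member and the members with the lowest and the highest fold change of each comparison. It also names the 10 most similar genes with and without slide means, and genes of marker lists by the smallest F test p. The members and lists were chosen with earlier results of these data known. Coordinates of probes are those of the array files (rn3) and those of genes and promoters are RefSeq's.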

Additional observations from a re-analysis of the deposited data

Results flagged for a closer look

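Among 84 sets of 5 arrays (12 probes in 7 groups), 7 values, on 5 arrays, stood apart from the rest of their group by more than Dixon's 95% critical value, where about 4.2 would by chance. Krt18 was low on Control array 2, on slide 3, with both probes (2.65 and 0.50). The second Krt18 probe was low on BPA25 array 4 (-1.57), as was Epcam (-2.40). Cldn4 was low on BPA250 array 2, on slide 3 (-2.21), and on BPA250+I3C array 2 (-2.91). Gata3 was high on BPA250+I3C array 3, on slide 4 (-1.42). The causes were not tested.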

How the results depend on the processing

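No member was called under any of the alternatives run (422 counts, all 0), and 3055 of 3235 gene values kept their sign. That share is raised by alternatives that cannot move a fold change, such as fitting only the groups compared or fitting every kept probe on its own. The median log2 fold change of the members in BPA25+I3C against Control was -1.58 in the main fit. It was -0.57 with normexp background correction, -0.78 in the authors' table and -0.81 without BPA25+I3C arrays 2 and 4 and BPA25 array 4. The normexp offset of 50 shrinks log2 differences of dim probes by construction, and its part in the -0.57 was not tested. Leaving out 1 array at a time gave medians of -1.88 to -1.20. The medians of BPA25 against Control, BPA250 against BPA25, BPA25+genistein against BPA25 and the difference of the genistein effects changed sign under at least 1 alternative, the others under none. Cldn4 in BPA250+genistein against Control was 0.041 instead of -1.43 without the filter on dim probes, because its other probe then stood for the gene. With a filter of all 35 arrays only Cldn3 remained, so no median was formed. With the replicate block no member call changed. Each group holds 1 array of each replicate number, so this block cannot change the fold change of a gene without missing values. The equal median in BPA25+I3C against Control (-1.58) therefore does not show stability. Counts of all genes called moved more: BPA250+I3C against Control had 0 genes, 87 with slide as a random block, 67 with only the groups compared and 41 without the 3 low arrays; BPA250+genistein against BPA250 had 0, and 76 with slide as a random block; BPA25+I3C against Control had 0, 25 without BPA25+I3C replicate 4 and 28 without the 3 low arrays; any difference among groups had 1, up to 136. Dim probes limit Krt8, Krt7, Gata3 and Elf5, which were not above background on 11, 11, 15 and 26 arrays.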
